A study of Mus musculus with 20 samples.

Results

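Ddit3, Cebpb, Cebpg and Jdp2 encode stress-responsive transcription factors of the basic leucine zipper (bZIP) class, and they were followed here in hepatoma cells whose glutamine supply was withdrawn and restored. They were taken by gene symbol from the platform annotation, which gave 4 genes of the 13406 named genes on the array, each with 1 probe. Hepa1-6 is a mouse hepatoma line. In every flask the medium held 25 mM glucose, penicillin-streptomycin and the serum substitute CPSR-3, and it was exchanged at confluence and again after 24, 48 and 72 h. The 24 h was taken from the spacing of the later exchanges. Control flasks kept 4 mM glutamine over the 96 h, while in experimental flasks each exchange switched glutamine from 4 mM to none or back, starting with 0 mM. Total RNA of experimental flasks carried Cy5 and that of control flasks Cy3, and both were hybridised to 1 two-colour DNA array per sample.

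The series held 20 arrays of 11 numbered time points, 9 of them with 2 arrays (called first and second here) and time points 5 and 11 with 1. The labels give no hour or glutamine level for a time point, so none was assigned. They do not say whether second arrays are repeat hybridisations. P-values that rest on the spread between arrays may therefore measure technical spread only. These are the p-values for changes along the course, single time points and contrasts of time points. The p-values for means over the course and for differences between genes rest on the spread between time points. A value is the log2 ratio of both channels after subtraction of its array's median, so 0 stands for the median probe. The base of the logarithm was inferred from 1 array, and the direction, likely experimental over control, from the order of the channels. If the direction were opposite, every sign below would turn, with the ratios inverted and the ranks reversed (Ddit3 to a ratio of 0.825 and Jdp2 to 1.39). No array had its dyes swapped, so a probe's preference for 1 dye cannot be told apart from a flask difference that lasted through the course. The ratios give no amounts of RNA, and fewer cells and less RNA per cell cannot be told apart in them.

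Arrays gave between 4269 and 8269 values for 17280 probes. The arrays of a time point correlated at r of 0.518 to 0.691 over probes, except for time point 6 (r = 0.0539) and time point 10 (r = -0.0168). All 4 bZIP genes were blank on the second array of time point 6, so the second array of time point 10 is the one whose values enter here. Results are given with and without it: the reduced set of 18 arrays leaves out both second arrays and the spots at raised positions on the arrays of time points 5 and 6. None of the 4 probes lies at such a position. Of 9 hepatocyte markers with a probe, 8 had a value on some array, among them albumin on 12 arrays, whereas the fetal liver marker Afp had a value on no array. The 3 macrophage markers with a probe had no value on any array. Markers of stellate, endothelial and bile duct cells had values for 6 of 6, 4 of 4 and 3 of 4 genes, which for ratios shows a readable spot and not a level.

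As background, bZIP proteins bind DNA as dimers, through a basic region next to a leucine zipper that holds the partners together. When amino acids run short, the kinase GCN2 phosphorylates eIF2, general translation slows and the bZIP factor ATF4 is translated, which then acts on genes of amino acid supply and on other bZIP genes. Ddit3 (also CHOP) is one of these genes and is known for its part in cell death under lasting stress. Cebpb encodes a C/EBP factor of liver metabolism and of the acute phase response, and Cebpg a short C/EBP protein that works mainly as a dimer partner, ATF4 included. Jdp2 encodes a partner of Jun proteins that represses AP-1 sites.

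The promoters are shown because members of this response are known to act on each other's genes through short elements. The bases come from RefSeq on build GRCm38.p6, and capitals mark matches to 5 motifs, searched on both strands in the 250 bases before a start site. These were the C/EBP-ATF composite element TGATGNAA, the core TGACG of the cyclic AMP response element (CRE core), the AP-1 site TGANTCA, the C/EBP site TTGCNNAA and the CCAAT box. They occurred in 3.45%, 17.8%, 6.75%, 9.56% and 33.8% of 32851 windows of this length. Ddit3 spans chr10:127290793-127296291, and its window is chr10:127290543-127290792 on the plus strand. Cebpb spans chr2:167688915-167690432, with the window chr2:167688665-167688914 on the plus strand. Cebpg spans chr7:35046422-35056566, with the window chr7:35056567-35056816 on the minus strand. Jdp2 spans chr12:85598656-85639878 and had 3 windows, of which 1 held a match, and 30 bases of that window, chr12:85599372-85599401 on the plus strand, are printed.
Ddit3: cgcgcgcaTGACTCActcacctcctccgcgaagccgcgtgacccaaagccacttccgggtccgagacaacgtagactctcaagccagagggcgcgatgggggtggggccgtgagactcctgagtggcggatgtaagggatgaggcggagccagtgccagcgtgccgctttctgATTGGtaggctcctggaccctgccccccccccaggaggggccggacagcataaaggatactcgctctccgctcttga
Cebpb: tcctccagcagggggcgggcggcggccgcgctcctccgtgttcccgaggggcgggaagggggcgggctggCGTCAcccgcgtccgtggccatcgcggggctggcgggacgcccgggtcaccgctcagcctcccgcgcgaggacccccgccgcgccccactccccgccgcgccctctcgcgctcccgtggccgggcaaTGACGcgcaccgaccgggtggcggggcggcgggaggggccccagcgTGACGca
Cebpg: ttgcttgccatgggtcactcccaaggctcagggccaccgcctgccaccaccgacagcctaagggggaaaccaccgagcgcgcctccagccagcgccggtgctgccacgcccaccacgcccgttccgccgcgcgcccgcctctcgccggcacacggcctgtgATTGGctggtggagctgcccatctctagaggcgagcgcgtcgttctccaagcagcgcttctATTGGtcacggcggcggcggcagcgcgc
Jdp2: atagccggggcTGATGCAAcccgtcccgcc

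The Ddit3 window held an AP-1 site 242 to 236 bases before the start and a CCAAT box, on the opposite strand, 77 to 73 bases before it. In the Cebpb window, 81.6% of bases were G or C, and the CRE core lay 180 to 176, 53 to 49 and 7 to 3 bases before the start, the farthest on the opposite strand. Cebpg had 2 CCAAT boxes on the opposite strand, 89 to 85 and 28 to 24 bases before the start. Jdp2 held the composite element 33 to 26 bases before the start and, outside the printed stretch, a CRE core 114 to 110 bases before it. A match describes the letters in these windows only.

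Ddit3 was above the median probe on 17 of the 19 arrays that measured it. At time points 1 to 4, first arrays gave 0.33, 0.42, 0.31 and 0.32, and second arrays 0.06, 0.14, 0.25 and 0.69. At time points 7 to 10, first arrays gave 0.04, 0.36, 0.74 and 1.04, and second arrays -0.36, 0.81, 0.31 and 0.42. Time points 5, 6 and 11, with 1 value each, were at 0.32, 0.15 and -0.35. Its time-point means were thus highest at time points 8 to 10, with time point 4 close behind (0.50, against 0.53 at time point 9). Ddit3 was below the median probe on only 2 arrays, the second of time point 7 and that of time point 11.

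The mean of Ddit3 over time points was 0.28 ± 0.32 (SD, n = 11), with a 95% interval of 0.08 to 0.48. On a linear scale this is a ratio of 1.21, and 9 of 11 time points were above 0. limma called it higher with an adjusted p of 0.0444, in a test that called 13.6% of 4752 genes higher. The call is close to its threshold of 0.05. It was lost without any single time point other than 7 and 11 (adjusted p from 0.0509 to 0.0911, means from 0.23 to 0.29). It was also lost without any of 9 arrays: the first of time points 1, 2, 5, 6, 7, 9 and 10 and the second of time points 4 and 8 (adjusted p from 0.0510 to 0.0776). In the reduced set of 18 arrays the mean was 0.31 (adjusted p = 0.0221), with 21.2% of genes called higher. On values that were not centred it was 0.53 (adjusted p = 0.000766).

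Cebpb was below the median probe on 18 of 19 arrays and at 0 on the other. The first arrays of time points 1 to 4 gave -0.94, -0.28, -1.13 and -0.20, and the second arrays -0.95, -0.29, -0.19 and -1.04. For time points 7 to 10 the first arrays gave -1.73, -0.47, -0.16 and 0, and the second arrays -1.02, -0.65, -0.43 and -1.33. Time points 5, 6 and 11, again with 1 value each, were at -0.17, -1.28 and -0.24. The ratio was lowest at time points 6 and 7, and the arrays of time points 3, 4 and 10 were far apart.

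The mean of Cebpb was -0.64 ± 0.41 (SD, n = 11), with a 95% interval of -0.89 to -0.40 and all 11 time points below 0. This is a ratio of 0.64, and 0.368% of the 4752 genes tested had a lower mean. With the direction turned it would be a ratio of 1.56, with the same share of genes above it. limma called it lower with an adjusted p of 0.00225, against 9.05% of genes called lower. The call held without each single array and each single time point, with means between -0.71 and -0.57, and the reduced set gave -0.58 (adjusted p = 0.00168). The block of 540 consecutive probe numbers around Cebpb had a median below that of the array on 17 of 20 arrays, and Cebpb lay below its own block on 15 of 19. Centred on its block, Cebpb had a mean of -0.45 (adjusted p = 0.0261), with 9 of 11 time points below 0, and on values that were not centred the mean was -0.39 (adjusted p = 0.00967).

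Jdp2 was measured on 15 arrays, 13 of them below the median probe. Across time points 1 to 4 its first arrays gave -0.62, -0.69, -1.80 and -0.96, and its second arrays -0.98, -0.18, -0.64 and -1.55. Time point 10 had -0.36 on the first array and 0.95 on the second. The value 0.95 comes from the array that stands apart, where 310 spots share its deposited value. Time points 5, 6, 8, 9 and 11 had 1 value each, at -0.03, -0.85, 0.12, -0.35 and -0.27, and time point 7 had none. Jdp2 was lowest at time points 3 and 4 and nearest to the median probe at time point 5.

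The mean of Jdp2 was -0.48 ± 0.54 (SD, n = 10), with a 95% interval of -0.81 to -0.15 and 8 of 10 time points below 0. limma called it lower with an adjusted p of 0.0420, at a ratio of 0.717, and 1.24% of genes had a lower mean. Without time point 1, 2, 3, 4, 6, 9 or 11 the call was lost (adjusted p from 0.0547 to 0.0890, means from -0.50 to -0.39). It was also lost without the first array of time point 2, 6, 9, 10 or 11 or the second of time point 3 (adjusted p from 0.0532 to 0.168). The mean was -0.54 in the reduced set of 18 arrays (adjusted p = 0.00486, with 12.2% of genes called lower) and -0.24 on values that were not centred (adjusted p = 0.151).

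Cebpg was measured on 13 arrays, 5 above and 8 below the median probe. On the first arrays of time points 2, 3 and 9 it was at -0.51, -0.15 and -0.16, and on the second arrays at -0.28, -0.50 and 0.03. Time points 1, 5, 6, 7 and 8 had 1 value each, at -0.27, 0.78, 0.13, 0.42 and -0.13. Time points 10 and 11 also had 1 value each, at -1.12 and 0.19. Time point 4 had no value, and the value of time point 10 comes from the array that stands apart. The genes thus differed in sign at time point 7, where Cebpg was above the median probe and Cebpb far below it.

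The mean of Cebpg was -0.08 ± 0.51 (SD, n = 10), with a 95% interval of -0.40 to 0.24, and limma did not call it (adjusted p = 0.723). It changed sign, to 0.05, in the reduced set of 18 arrays (adjusted p = 0.771), and to 0.16 on values that were not centred (adjusted p = 0.373). A mean difference from the median probe was therefore not detectable for Cebpg with these arrays.

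**Figure D1:**
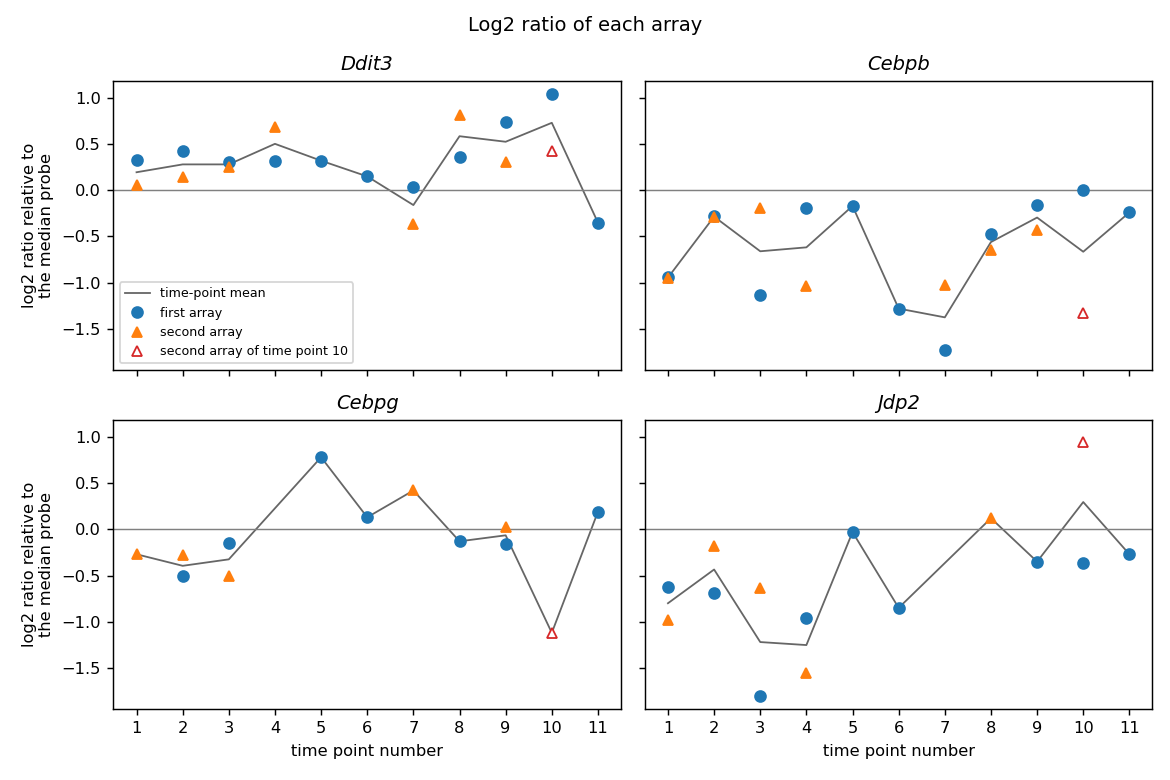
Log2 ratio after centring on the array median (y axis) at each numbered time point (x axis) for the 4 genes, with circles for first arrays, triangles for second arrays, an open triangle for the second array of time point 10 and a line through the time-point means, which runs straight across a time point without a value. Ddit3 lies above 0 on 17 of 19 arrays and Cebpb at or below 0 on all 19, with its lowest value of -1.73 at time point 7.

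Ranked against all spots of the same array, Ddit3 lay above a median of 81.8% of spots, from 12.4% on the lowest array to 99.6% on the highest, and it was among the highest 10% of spots on 7 arrays. Cebpb lay above a median of 5.21% of spots (0.201% to 49.3%) and was among the lowest 10% on 11 of 19 arrays. Jdp2 had a median place of 2.97% (0.0457% to 88.7%) and was among the lowest 10% on 8 of 15 arrays. Cebpg had a median place of 30.6% (3.38% to 89.6%) and was among the lowest 10% on 3 arrays. With the direction turned, the median places would be 17.1%, 94.4%, 96.9% and 68.3% for Ddit3, Cebpb, Jdp2 and Cebpg. The ranges of Ddit3 and Cebpb overlapped, since Ddit3 held low places on the second array of time point 7 and on that of time point 11.

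**Figure D2:**
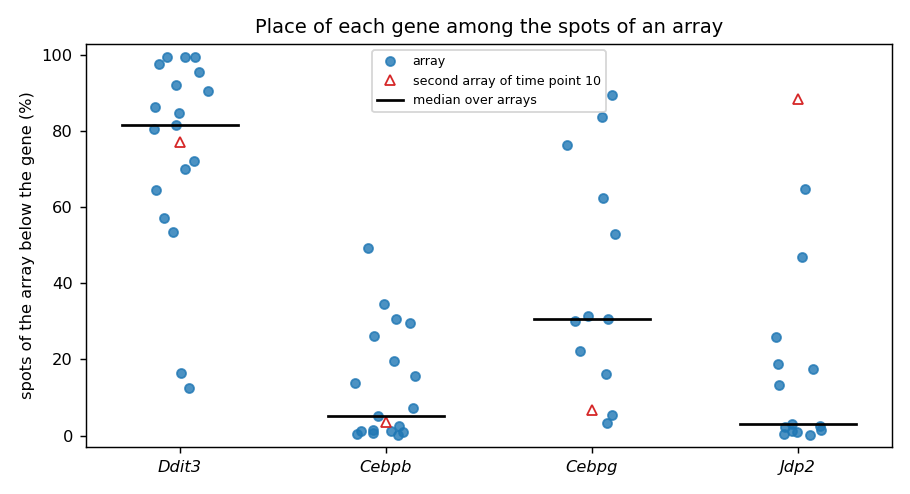
Share of the spots of an array that lie below the gene (y axis, %) for each array that measured it, with an open triangle for the second array of time point 10 and a bar for the median over arrays. The medians are 81.8% for Ddit3, 5.21% for Cebpb, 30.6% for Cebpg and 2.97% for Jdp2.

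The 4 genes were compared with each other by an exact two-sided sign-flip permutation test on the difference of their log2 ratios at each time point, with p-values adjusted over 6 pairs. A shift of a whole array cancels in such a difference, whereas a dye bias of a probe does not. Ddit3 exceeded Cebpb by 0.92 ± 0.46 (SD, n = 11), at every time point but 11 (exact adjusted p = 0.0117). It exceeded Jdp2 by 0.80 ± 0.55 (SD, n = 10), again at every shared time point but 11 (exact adjusted p = 0.0117). Both differences passed the test without each time point in turn and in the reduced set (0.89 and 0.90).

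No difference between the lower genes was established: Cebpb minus Jdp2 was -0.09 ± 0.50 (SD, n = 10), with 5 time points on either side of 0 (exact adjusted p = 0.580). Cebpb lay 0.57 ± 0.67 below Cebpg on the log2 scale (SD, n = 10), at 8 of 10 time points, just short of the threshold (exact adjusted p = 0.0508). Without time point 10, whose only Cebpg value comes from the array that stands apart, the difference was -0.68 and passed (exact adjusted p = 0.0156), and without time point 2 it was -0.64 (0.0469). Cebpg minus Jdp2 was 0.26 ± 0.75 (SD, n = 9; exact adjusted p = 0.384), and without time point 10 it was 0.47 and passed (0.0352). Ddit3 minus Cebpg was 0.33 ± 0.75 (SD, n = 10; exact adjusted p = 0.243).

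**Figure D3:**
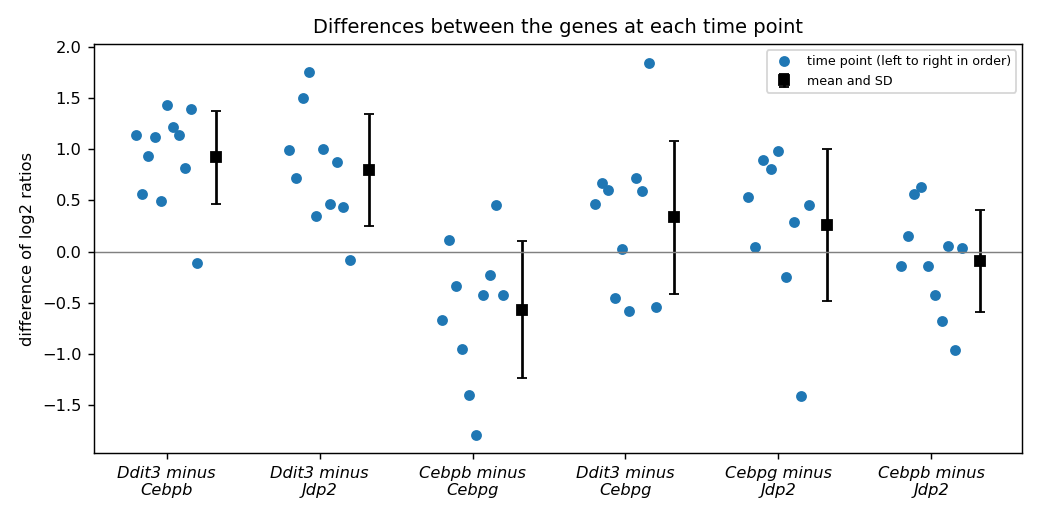
Difference of the log2 ratios of 2 genes (y axis) at each time point they share, drawn in time order from left to right within a pair, with a square and bar for the mean and SD. Ddit3 minus Cebpb and Ddit3 minus Jdp2 lie above 0 at all shared time points but 11, with means of 0.92 and 0.80, whereas Cebpb minus Jdp2 is spread around 0.

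Whether the ratios changed along the course was tested with limma's F test, with the spread taken from time points with 2 arrays. With all 20 arrays neither Ddit3 (F = 2.32, adjusted p = 0.327) nor Cebpb (F = 1.32, adjusted p = 0.574) was called, in a test that called 7% of 3744 genes. Cebpg and Jdp2 had too few arrays for it and were tested among genes with 12 or more arrays, where 6.85% were called. There Cebpg had an adjusted p of 0.126 and Jdp2 of 0.438.

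Ordered by level, the time-point means of Ddit3 ran from 0.73 at time point 10 through 0.58 at 8, 0.53 at 9 and 0.50 at 4 to -0.16 at 7 and -0.35 at 11. Its arrays of a time point had an SD of 0.277, and the largest step between neighbours in the order, 0.31 between time points 6 and 7, was 1.12 times that. Cebpb ran from -0.17 at time point 5 to -1.38 at 7, with an SD of 0.499 between arrays, and no step between neighbours exceeded 0.672 of it. Jdp2 ran from 0.29 at time point 10 to -1.25 at 4, with an SD of 0.617 and no step above 0.60 of it. In Cebpg the step of 0.72 from time point 2 to time point 10 was 3.86 times the SD of 0.188, and it rests on the array that stands apart. The Cebpg steps from time point 5 to 7 (0.36), from 7 to 11 (0.23) and from 6 to 9 (0.195) were 1.92, 1.23 and 1.04 times its SD, which comes from 3 time points with 2 arrays. All other steps of the 4 genes lay within their SD between arrays.

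The calls along the course depended on the arrays of time point 10. In the reduced set limma called Ddit3 (adjusted p = 0.000220) and Cebpb (adjusted p = 1.97e-06) among genes with 16 or more arrays, of which 33% were called. It called all 4 genes among those with 12 or more arrays, with adjusted p-values of 0.00103 for Ddit3, 3.51e-05 for Cebpb, 0.000832 for Cebpg and 3.71e-05 for Jdp2, where 27.5% of genes were called. For Cebpb and Jdp2 the spread that limma used, drawn towards that of all genes, was far below the gene's own, at 0.226 against 0.397 for Cebpb and 0.229 against 0.511 for Jdp2. With each gene's own spread, the unadjusted p-values were 0.0822 for Ddit3, 0.208 for Cebpb, 0.0950 for Cebpg and 0.451 for Jdp2. Among genes with 16 or more arrays, leaving out the first instead of the second array of time point 10 also brought Ddit3 (adjusted p = 0.0193) and Cebpb (adjusted p = 0.000473) below the threshold.

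At single time points, limma with 20 arrays called Cebpb lower at time point 7, at -1.38 with an SE of 0.31 (adjusted p = 0.0204), where 5.2% of genes were called lower. Both arrays of that time point, at -1.73 and -1.02, were below its mean over the course. Ddit3 was called higher at time point 10, at 0.73 with an SE of 0.19 (adjusted p = 0.0318), where 6.14% of genes were called higher. That value averages 1.04 and 0.42, the second from the array that stands apart. Cebpg was called lower at time point 10, at -1.12 (adjusted p = 0.0241), from the array that stands apart alone, where 6.47% of genes with 12 or more arrays were called lower. Jdp2 was called at no time point with 20 arrays, and its lowest values (-1.25 at time point 4, then -1.22 at 3) had adjusted p-values of 0.0972 and 0.181.

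The reduced set gave more calls at single time points among genes with 12 or more arrays. Cebpb was called lower at time points 1, 3, 4, 6, 7 and 8 (adjusted p from 1.09e-10 to 0.0237), and Jdp2 at 1, 3, 4 and 6 (adjusted p from 1.39e-08 to 0.0108). The shares of all genes called lower at time points 1, 3, 4, 6, 7 and 8 were 6.21%, 4.66%, 10.3%, 7.47%, 12.3% and 2.78%. Ddit3 was called higher at time points 4, 8, 9 and 10 (adjusted p from 0.000180 to 0.0138), where 12.2%, 2.8%, 4.12% and 5.52% of genes were called higher. Cebpg was called higher at time point 5, at 0.83 from 1 array (adjusted p = 0.00115), where 12.8% of genes were called higher. At time point 10 the reduced set left the first array alone, with Cebpb at 0, Ddit3 at 1.04 and no value for Cebpg. These tests rest on the same spread over all genes as the F test of the reduced set.

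Time point 7 was compared with time points 3 and 4 and with time points 8 and 9. Time points 5 and 6, with 1 value per gene, were not part of these contrasts. At time point 6, Ddit3 was at 0.15 and Cebpb at -1.28. For Ddit3, time point 7 had 0.04 and -0.36, and time points 3, 4, 8 and 9 ran from 0.25 to 0.81. For Cebpb, time point 7 had -1.73 and -1.02. Its values ran from -1.13 to -0.19 at time points 3 and 4 and from -0.65 to -0.16 at 8 and 9. From time points 3 and 4 to time point 7 the difference was -0.55 for Ddit3 (adjusted p = 0.278) and -0.74 for Cebpb (adjusted p = 0.401), and limma called neither, against 3.22% of genes called lower. From time point 7 to time points 8 and 9 it was 0.72 for Ddit3 (adjusted p = 0.175) and 0.95 for Cebpb (adjusted p = 0.334), again without a call, against 2.41% of genes called higher. In the reduced set the same differences were called, with adjusted p-values of 0.0180 and 0.00230 for the first step (9.9% of genes called lower) and 0.00159 and 6.12e-05 for the second (7.33% called higher). The differences themselves had the same values in both sets, whereas the spread was smaller in the reduced set, both over all genes and in these genes (SD between arrays of 0.245 against 0.277 for Ddit3 and 0.397 against 0.499 for Cebpb). Both steps share the arrays of time point 7.

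For Jdp2, which had no value at time point 7, the contrast of time points 8 and 9 with 3 and 4 was 1.12 (adjusted p = 0.669 with 20 arrays, and 0.000166 in the reduced set, where 1.12% of genes were called higher). The 4 values of time points 3 and 4 ran from -1.80 to -0.64, and the 2 values of time points 8 and 9 were 0.12 and -0.35. Only 1 array stood for each of the later time points. For the same contrast Ddit3 gave 0.16 and Cebpb 0.21, with adjusted p-values of 0.931 and 0.955 in limma with 20 arrays.

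Over the course, the genes did not vary together beyond what the tests could show. Over 6 pairs, Pearson's r ran from -0.56 for Ddit3 and Cebpg (Spearman's rho = -0.47, permutation adjusted p = 0.555 and 0.547) to 0.42 for Cebpb and Jdp2 (rho = 0.37, permutation adjusted p = 0.666 and 0.593). For Ddit3 and Cebpb it was 0.23 (rho = 0.20, permutation adjusted p = 0.778 and 0.835). Without the 2 time points farthest from the median of the first gene, r was 0.72 for Ddit3 and Cebpb, -0.31 for Ddit3 and Cebpg, 0.36 for Ddit3 and Jdp2, 0.59 for Cebpb and Cebpg, 0.28 for Cebpb and Jdp2 and 0.27 for Cebpg and Jdp2. The r of Cebpb and Cebpg had been -0.0057 and that of Cebpg and Jdp2 -0.10 with all time points, so several values of r rest on 2 time points. The unadjusted permutation p-values for r over all time points were 0.0926 for Ddit3 and Cebpg, 0.222 for Cebpb and Jdp2 and 0.502 for Ddit3 and Cebpb. Values of a time point share their arrays, and neighbouring time points may not be independent.

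Genes with the most similar profiles over 9 or more shared time points are given as a description. For Ddit3 they were Mapk6, an atypical MAP kinase (r = 0.892), an unnamed probe (r = 0.875, but -0.0406 in the reduced set) and Ivd, an enzyme of leucine breakdown (r = 0.873). For Cebpb they were Rnft1 (r = 0.951), D930016D06Rik (r = 0.926) and an unnamed probe (r = 0.907). For Jdp2 they were Vps26b, a part of the retromer (r = 0.957), the exonuclease Rexo2 (r = 0.955) and D730045A05Rik (r = 0.949). For Cebpg they were Prxl2c (r = 0.931) and 2 unnamed probes (r = 0.952 and 0.919). In the reduced set, r of the named genes ran from 0.748 for Vps26b to 0.960 for Rnft1. Of the 4751, 4751, 4100 and 4110 genes compared with Ddit3, Cebpb, Cebpg and Jdp2, 0, 3, 7 and 8 reached an r above 0.9. An r below -0.9 was reached by 0, 0, 10 and 0.

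**Figure D4:**
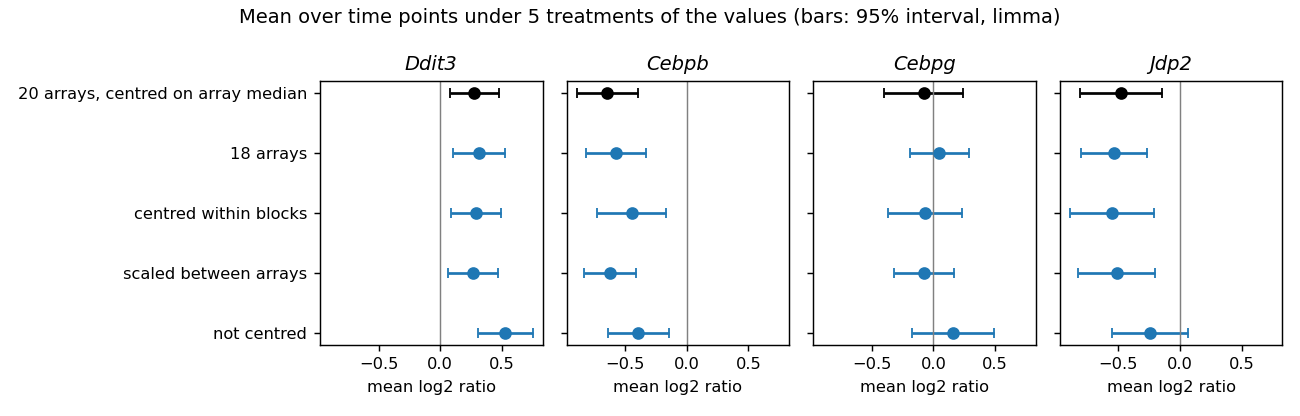
Mean log2 ratio over time points (x axis) with its 95% limma interval for each gene, from 20 centred arrays (black) and from 4 other treatments of the values (blue, named on the left). The intervals of Ddit3 and Cebpb exclude 0 in all 5, that of Jdp2 includes 0 for values that were not centred, and that of Cebpg includes 0 in all 5.

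The genes around these factors were read from lists, in the same test of the mean over time points. The median mean of all 4752 genes tested was 0.02, and 13.6% of them were called higher and 9.05% lower, against which each count below is to be read. Of 14 eIF2 kinases and regulators upstream of ATF4 with a probe, 6 could be tested, with a median of 0.01, and 1 was called higher: Eif2ak1, the heme-regulated eIF2 kinase, at 0.28 ± 0.22 (SD, n = 11; adjusted p = 0.0108 in limma). Eif2ak4, which encodes GCN2, was at -0.01 ± 0.14 (SD, n = 9) and was not called (limma adjusted p = 0.955). Atf4 itself had a value on 1 array only.

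Of 30 genes of amino acid supply under ATF4 with a probe, 8 could be tested, with a median of 0.01. Sesn2, a stress-induced inhibitor of mTORC1 signalling, was called higher at 0.25 ± 0.17 (SD, n = 11; limma adjusted p = 0.00853). Xpot, a carrier that exports tRNA from the nucleus, was called lower at -0.23 ± 0.14 (SD, n = 9; limma adjusted p = 0.0160). Asns, asparagine synthetase and a classic gene of this response, had a value on no array, and Trib3 on 2. Atf4, Asns and Trib3 therefore could not be followed beside Ddit3 on these arrays. The other tested genes of this list were Slc7a5, Slc7a1, Slc3a2, Slc6a9, Psat1 and Phgdh. Their means were 0.11, 0.03, 0.07, -0.06, -0.01 and -0.13, and none was called with 20 arrays (limma adjusted p from 0.260 to 0.955). In the reduced set Phgdh was called lower at -0.19 (limma adjusted p = 0.0434).

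Of 41 other bZIP genes with a probe, 15 could be tested, and limma called 0 in either direction with 20 arrays, with a median of -0.08. The means farthest from 0 were those of Fos, a partner in AP-1, at 1.02 ± 2.49 (SD, n = 11; limma adjusted p = 0.288), and of Atf1, a relative of CREB, at 0.37 ± 0.71 (SD, n = 11; limma adjusted p = 0.177). In the reduced set both were called higher, Fos at 0.26 and Atf1 at 0.24 (adjusted p = 0.0395 for each), and Jun, named after its value was seen, was called lower at -0.29 (adjusted p = 0.0425). That makes 3 of 13 tested, where 21.2% of all genes were called higher and 12.2% lower. The closest relatives of Cebpb in liver, Cebpa and Cebpd, were at -0.15 ± 0.17 (SD, n = 11; limma adjusted p = 0.0823) and -0.08 ± 0.19 (SD, n = 11; limma adjusted p = 0.381). The mean of Cebpb was thus further below 0 than that of either, but these differences were not tested.

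Of 18 genes of cell death, redox and growth arrest linked to Ddit3 with a probe, 4 could be tested. Gadd45b, a growth arrest gene, was called higher at 0.65 ± 0.59 (SD, n = 11; limma adjusted p = 0.0123), and all 11 time points were above 0. Bbc3, Bak1 and Casp9, which act in cell death, were not called, with means of -0.08, -0.07 and 0.07. Of 24 liver and acute phase genes linked to C/EBP factors with a probe, 10 could be tested, with a median of 0.01. Alb, which encodes albumin, was called lower at -0.56 ± 0.21 (SD, n = 9; limma adjusted p = 0.000759), as was Itih3, a plasma protein, at -0.29 ± 0.28 (SD, n = 9; limma adjusted p = 0.0442). Of 23 genes of endoplasmic reticulum stress with a probe, 8 could be tested, with a median of -0.10. P4hb, a protein disulfide isomerase, was called lower at -0.49 ± 0.29 (SD, n = 11; limma adjusted p = 0.00207), as was Edem1, which acts in the disposal of misfolded proteins, at -0.28 ± 0.26 (SD, n = 10; limma adjusted p = 0.0272). Hspa5 had the highest mean of this list, at 0.42 ± 0.83 (SD, n = 11), and was not called (limma adjusted p = 0.192).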

How the data were processed

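Hepa1-6 RNA was measured on 20 two-colour DNA arrays. The authors deposited 1 table of values, read here as log2 ratios per array, with dyes per the labels. Scanner, background correction, spot filter and normalization are not given in the sources used here. Base 2 is an inference from 1 array, the second of time point 10. Its most common value was 0.31, on 331 spots, and another repeated value differed from it by 1. That is a ratio of 0.5 in base 2, but a difference of 1 does not by itself single out a base. The highest value of that array, 16.92 on 111 spots, lay 16.61 above the most common, close to a ratio of 100000 in base 2. Array medians lay between 0.05 and 0.435, and every array was then shifted to a median of 0. The platform annotation named 14718 of 17280 probes by 1 symbol, 1 listed probe had several, and 14445 listed probes were matched to a RefSeq gene table, with 0 symbols changed. The label of the control channel on the first array of time point 4 reads as glutamine-free cells. It was taken as a slip, and an alternative omits that time point.

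Tests used R 4.3.3 and limma 3.58.1, with Python 3.11.15 and scipy 1.17.1. For the mean, the average of each time point's arrays was tested against 0 in genes with 9 or more time points. F tests, single time points and contrasts used genes with 16 or more arrays, or 12 where Cebpg and Jdp2 needed it. Benjamini-Hochberg adjusted p under 0.05, over all genes tested, counted as called. Correlations used 100000 permutations, or exact enumeration under 10 points. Time points were treated as independent. Scripts were tested on simulated data. The number of arrays limits the precision. The 4 genes, the lists and the tests were chosen with earlier results of these data known. Named are the 4 genes, up to 4 called genes of each list with the largest mean (otherwise the 2 largest), the 3 most similar profiles, and Atf4, Asns and Trib3. Eif2ak4, Cebpa, Cebpd, Bbc3, Bak1, Casp9, Slc7a5, Slc7a1, Slc3a2, Slc6a9, Psat1, Phgdh and Hspa5 were added after their values were seen.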

Additional observations from a re-analysis of the deposited data

How the results depend on the processing

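The mean of Cebpb was called lower under all 9 alternatives that kept it in the test. Leaving out single arrays or time points gave means of 0.23 to 0.34 for Ddit3, called in 13 of 31 cases, of -0.57 to -0.39 for Jdp2, called in 18 of 31, and of -0.17 to 0.0372 for Cebpg, called in none (limma adjusted p from 0.349 to 0.860). Among genes with 6 or more time points Ddit3 kept its mean of 0.28 and missed the threshold (limma adjusted p = 0.0511). Values that were not centred gave 0.16 for Cebpg, of opposite sign, and -0.24 for Jdp2, not called. On second arrays alone, chosen after seeing the data, Ddit3 (0.29) and Jdp2 (-0.38) were not called. The 18 arrays turned the mean of Cebpg to 0.0472.

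For changes along the course, the 18 arrays brought limma's adjusted p to 0.000220 for Ddit3 and 1.97e-06 for Cebpb (0.00103 and 3.51e-05 among genes with 12 or more arrays, a limit chosen after seeing the data). Without single arrays it ran from 0.00299 to 0.475 and from 0.000473 to 0.776. A fit with first or second array as a replicate block gave 0.330 for Ddit3 and 0.619 for Cebpb, changed no call, and limma called 0 of 3744 genes for second against first arrays. With 18 arrays the steps to time point 7 (-0.55 for Ddit3, -0.74 for Cebpb) and from it (0.72 and 0.95) were called, and that of Cebpb from time points 8 and 9 to 10 and 11 turned to 0.31. With 18 arrays Cebpb minus Cebpg was -0.68 and Cebpg minus Jdp2 0.47, both passing, and Cebpb minus Jdp2 turned to 0.0395 (0.17 on first arrays). Without single time points these ran from -0.68 to -0.43, from 0.17 to 0.47 and from -0.17 to 0.00389. Pearson's r turned to 0.00742 for Cebpb and Cebpg and to 0.493 for Cebpg and Jdp2. Called list members with 18 arrays were 2 higher and 0 lower among eIF2 regulators, 1 and 2 among ATF4 targets, 2 and 1 among other bZIP genes, 1 and 0 among Ddit3-linked genes, 1 and 3 among liver genes, and 0 and 2 among endoplasmic reticulum genes, where 21.2% of all genes were called higher and 12.2% lower. Of 22 values of Ddit3 and Cebpb at single time points, 8 not called with 20 arrays were called with 18. The cause of these shifts was not tested. The number of arrays limits Cebpg and Jdp2 most, with 13 and 15.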
